A study of Homo sapiens with 10 samples.

Results

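Cultures of 22RV1, an established human prostate cancer cell line that grows without androgen, received THZ531 or SRPIN340 for 4 h, and the newly made and the total mRNA of the treatments were compared with each other. The 4 libraries with those labels, 2 of THZ531 and 2 of SRPIN340, were taken out of the 10 libraries of the series. The control libraries were not compared. With those of Endovion (50 μM) and of THZ531 plus Endovion, they lent their spread to the fits. The dose of SRPIN340 was 20 μM. THZ531 was given at 100 nM according to the methods, whereas 150 nM stands in the text of the series. In every library 4-thiouridine was present for the last 10 min before lysis, and control cells received the label without an inhibitor. Cells given THZ531 and SRPIN340 together were not analysed here. The labels do not say that the libraries of a treatment came from separate cultures, so the p-values measure the spread between these libraries, which may be technical.

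THZ531 is a covalent inhibitor of CDK12 and of the related CDK13. CDK12, with its partner cyclin K, phosphorylates the tail of RNA polymerase II while the polymerase moves along a gene, and its loss is known for premature cleavage and polyadenylation in introns and for lower output of DNA repair genes. SRPIN340 inhibits SRPK1, and also SRPK2, kinases that phosphorylate the serine- and arginine-rich (SR) splicing factors. SLAM-seq reads RNA made during the label: 4-thiouridine taken up into RNA is alkylated, and reverse transcription then places a C at that T. A read with such a T>C conversion is counted here as nascent RNA, and all reads of a gene as total RNA. Because the libraries hold the 3′ ends of polyadenylated RNA, a nascent read stands for a transcript that was labelled, cleaved and polyadenylated within the label time.

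The 2 THZ531 libraries held 27983398 and 19565934 reads on genes, and the 2 SRPIN340 libraries held 26003373 and 30047769. T>C reads were 5.63% and 5.23% of them with THZ531 and 5.57% and 5.08% with SRPIN340. The mean share was 5.43% ± 0.282 (SD, n = 2) against 5.32% ± 0.350 (SD, n = 2), a difference of 0.108 percentage points (exact permutation test, two-sided, p = 0.667, the smallest possible being 0.33). Replicates of a treatment differed by more than counting noise. Luminal prostate markers were present, with a summed level of 1597 and 1540 CPM (counts relative to the TMM-scaled library size) with THZ531, 1999 and 2013 with SRPIN340 and 1992 and 1990 in the control. The 3 basal markers were listed at 0 in all 4 libraries, and leukocyte and endothelial markers summed to at most 0.536 CPM. The place of the lower luminal sum with THZ531 in the results that follow was not tested. In bulk RNA, fewer cells of a kind and less RNA per cell cannot be told apart.

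More genes were lower than higher with THZ531 than with SRPIN340. In nascent RNA 9946 genes had enough T>C reads to be tested, and at an adjusted p under 0.05 132 of them (1.33%) were higher and 259 (2.6%) lower with THZ531 (edgeR quasi-likelihood test, Benjamini-Hochberg adjustment). With a log2 difference of at least 1 these were 74 (0.744%) and 217 (2.18%) genes. In total RNA 14689 genes were tested, of which 1034 (7.04%) were higher and 1766 (12%) lower. The differences were largest among the lower genes, with 66 nascent RNAs under −2 on the log2 scale against 23 over 2. The counts leaned on single libraries. They fell to 30 and 66 in nascent RNA without replicate 2 of THZ531, to 37 and 112 without replicate 1 of SRPIN340 and to 64 and 136 without replicate 2 of SRPIN340. Without replicate 1 of THZ531 they were 105 and 160. In total RNA they were 404 and 1000, 347 and 994, and 466 and 1100 without the same 3 libraries in turn. Lower genes made up 66.2% of the calls in nascent and 63.1% in total RNA, and 80.3% and 79.5% when the libraries were scaled by their size alone, a scaling that set the median of all genes at −0.09 and −0.12 on the log2 scale.

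**Figure D1:**
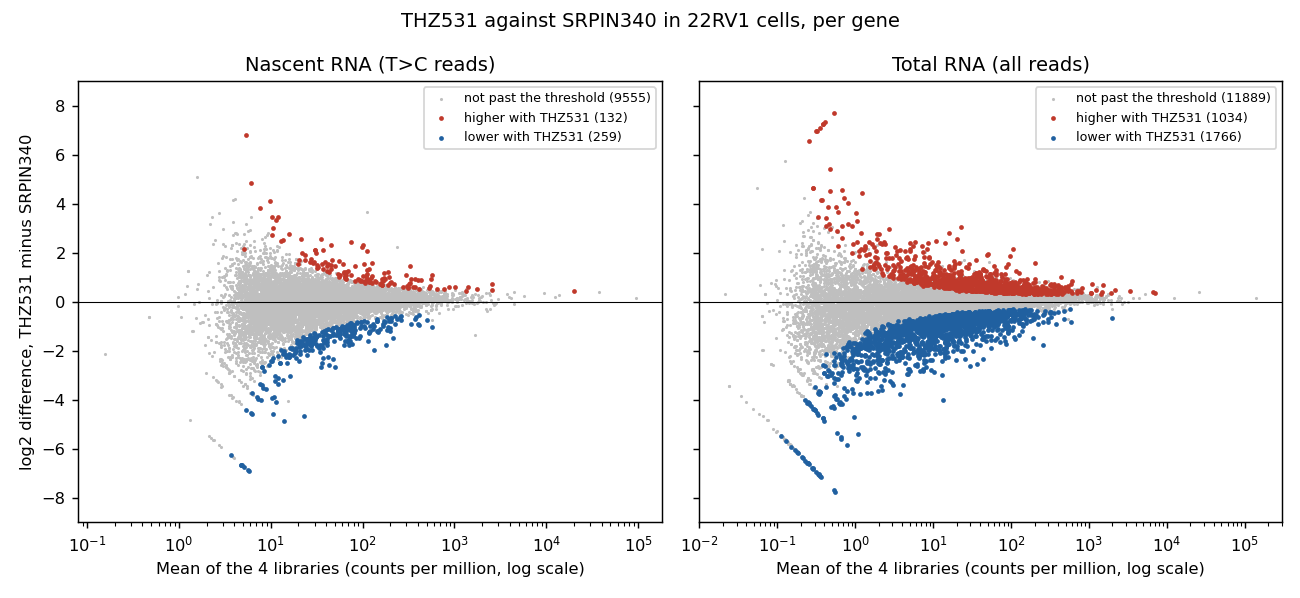
Log2 difference between THZ531 and SRPIN340 of each tested gene (vertical axis) against its mean level over the 4 libraries (CPM, log axis), in nascent RNA (left) and total RNA (right). Red and blue points are the 132 and 259 genes called in nascent RNA and the 1034 and 1766 called in total RNA; the slanting rows of points at the edges are genes with no or almost no reads in 1 of the treatments, whose fitted difference is no bound.

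The genes called in nascent RNA moved the same way in total RNA. Of the 132 higher genes 111 (84.1%) were also called higher in total RNA, of the 259 lower genes 239 (92.3%) were called lower, and 0 were called the opposite way. T>C reads are part of all reads, so the measures share counts. The nascent difference was the larger in 106 of the 132 higher genes (80.3%), with a median log2 difference of 1.07 in nascent and 0.78 in total RNA, and in 223 of the 259 lower genes (86.1%), with medians of −1.49 and −1.05. Genes entered this count by passing the test in nascent RNA, so the larger nascent difference is a description. Across all 9946 genes, which are not independent replicates, Pearson's r between the nascent and the total difference was 0.703 and Spearman's rho 0.678.

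**Figure D2:**
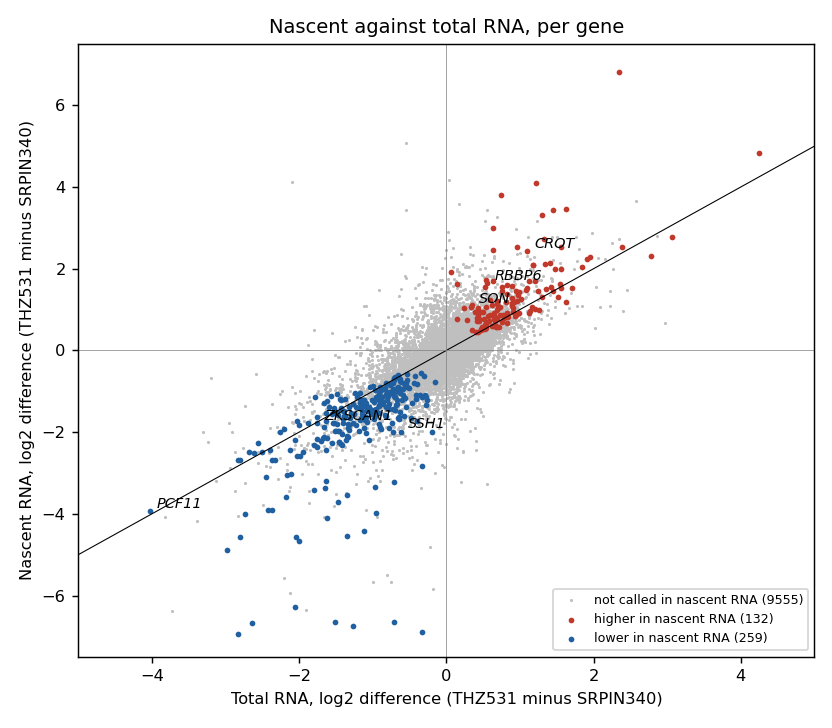
Log2 difference between THZ531 and SRPIN340 of each gene in nascent RNA (vertical axis) against that in total RNA (horizontal axis), with the line of equal differences. The called genes lie in the upper right (132 higher) and lower left (259 lower), and SSH1, SON, CROT and RBBP6 lie farther from the line of no change in nascent than in total RNA.

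The share of T>C reads among the reads of a gene, which compares newly made with total RNA within a library, gave no gene at an adjusted p under 0.05 in either direction (edgeR, 9946 genes tested, 0%). At an unadjusted p under 0.05 there were 464 genes, or 4.67% of those tested. DESeq2 called 1 gene each way, GABPB1-AS1, a long non-coding RNA that overlaps another gene on the same strand, and SSH1, whose adjusted p was 0.0757 for each in edgeR. These 2 were named after their values were seen.

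The mean of the control libraries lay nearer to SRPIN340 than to THZ531 for 101 of the 132 genes that were higher in nascent RNA (76.5%) and for 234 of the 259 that were lower (90.3%). In total RNA it lay nearer to SRPIN340 for 896 of 1034 (86.7%) and for 1516 of 1766 (85.8%).

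Among the genes lower with THZ531, the smallest p in nascent RNA belonged to ZKSCAN1 (chr7:100015572-100041689, hg38), a zinc finger transcription factor. Its nascent level was 74.9 and 89.5 CPM with THZ531, 287 and 274 with SRPIN340 and 280 and 343 in the control. It fell by 1.78 ± 0.19 (SE) on the log2 scale (edgeR adjusted p = 4.02e-09), and the groups did not overlap. CDKN1B (chr12:12685498-12722369), the p27 inhibitor of cyclin-dependent kinases, stood at 115 and 111 CPM with THZ531 and 338 and 297 with SRPIN340. Its control libraries, at 220 and 237, lay between the treatments. The nascent log2 difference was −1.49 ± 0.19 (edgeR adjusted p = 1.1e-07). TERF2, which protects telomere ends within the shelterin complex, stood at 7.16 and 12.2 against 59.5 and 60.7, with 72.7 and 72.2 in the control, a log2 difference of −2.68. CHAC1, an enzyme that degrades glutathione, stood at 16.9 and 6.1 CPM with THZ531 and 72.4 and 76.4 with SRPIN340. Here the control, at 27.7 and 20.1, was nearer to THZ531. CEBPB, a stress-responsive transcription factor with 21.6% of T>C reads in the control, showed the same order at 386 and 362, 783 and 734, and 504 and 462. The other lower genes of the smallest p were the cofilin phosphatase SSH1 (log2 difference −2.0; 20.2% T>C reads in the control), the long non-coding RNA HELLPAR (−2.67), whose interval overlaps another gene, the ubiquitin ligase TRIM56 (−1.60), the nuclear kinase HIPK2 (−1.20), the transcription factor CREB1 (−1.73), the long non-coding RNA LINC00963 (−1.77) and RBM15B (−1.26), a subunit of the complex that methylates adenosine in mRNA.

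In total RNA the smallest p belonged to PCF11 (chr11:83156988-83187451), which binds the tail of RNA polymerase II and acts in 3′ end cleavage and termination. Its total RNA was 1.7 and 1.34 CPM with THZ531, 24.7 and 25.7 with SRPIN340 and 17.8 and 20.7 in the control. All of these reads, 46 and 25 with THZ531 and 660 and 808 with SRPIN340, lay on 1 interval. That interval ends past the last exon of the canonical transcript, among the ends placed farther downstream below. Of 423 tested intervals so placed, 81 were lower and 10 higher. The total log2 difference of PCF11, which is that of this end, was −4.03 ± 0.25 (edgeR adjusted p = 3.52e-07). Its nascent RNA rested on 2 and 1 T>C reads with THZ531 against 31 and 29 with SRPIN340. Counts in these libraries are reads in annotated 3′ end intervals only, and transcripts of PCF11 that end elsewhere are not in them. SMCR8, a partner of C9orf72, stood in total RNA at 6.53 and 5.95 against 32.3 and 33.8 CPM (log2 difference −2.40), and the zinc finger gene ZNF862 at 2.62 and 2.31 against 18.7 and 17.5 (−2.87). Among the genes that rose in total RNA the long non-coding RNA ALMS1-IT1 stood at 30.6 and 51.7 against 5.09 and 4.73 (3.06).

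Among the genes higher with THZ531, TMEM201 (chr1:9588911-9614877), a protein of the inner nuclear membrane, stood at 154 and 175 CPM with THZ531 against 37.9 and 31.9 with SRPIN340 and 32.8 and 38.5 in the control. TAF5L (chr1:229593134-229626122), a subunit of a histone acetyltransferase complex, stood at 145 and 211 against 37.2 and 48.2. For both genes the THZ531 libraries lay above the SRPIN340 and control libraries, at log2 differences of 2.23 ± 0.28 and 2.05 ± 0.27 (edgeR adjusted p = 1.16e-07 and 4.4e-07). CROT, a carnitine acyltransferase of peroxisomes, stood at 93.1 and 160 against 17.6 and 28.8, with 36.7 and 28.9 in the control. SON, a scaffold protein of nuclear speckles, stood at 381 and 414 against 176 and 203, with 207 and 246 in the control (log2 difference 1.07 ± 0.17, edgeR adjusted p = 3.61e-05). In total RNA SON did not pass the test (log2 difference 0.34, edgeR adjusted p = 0.0523). RCL1, with 28.4% T>C reads in the control, IER5L, with 28.0%, ZNF587B, RBM12, the checkpoint kinase CHEK1 and the mRNA export receptor NXF1 were also among the higher genes of the smallest p, at nascent log2 differences of 1.46, 1.07, 2.54, 1.52, 1.22 and 1.27.

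**Figure D3:**
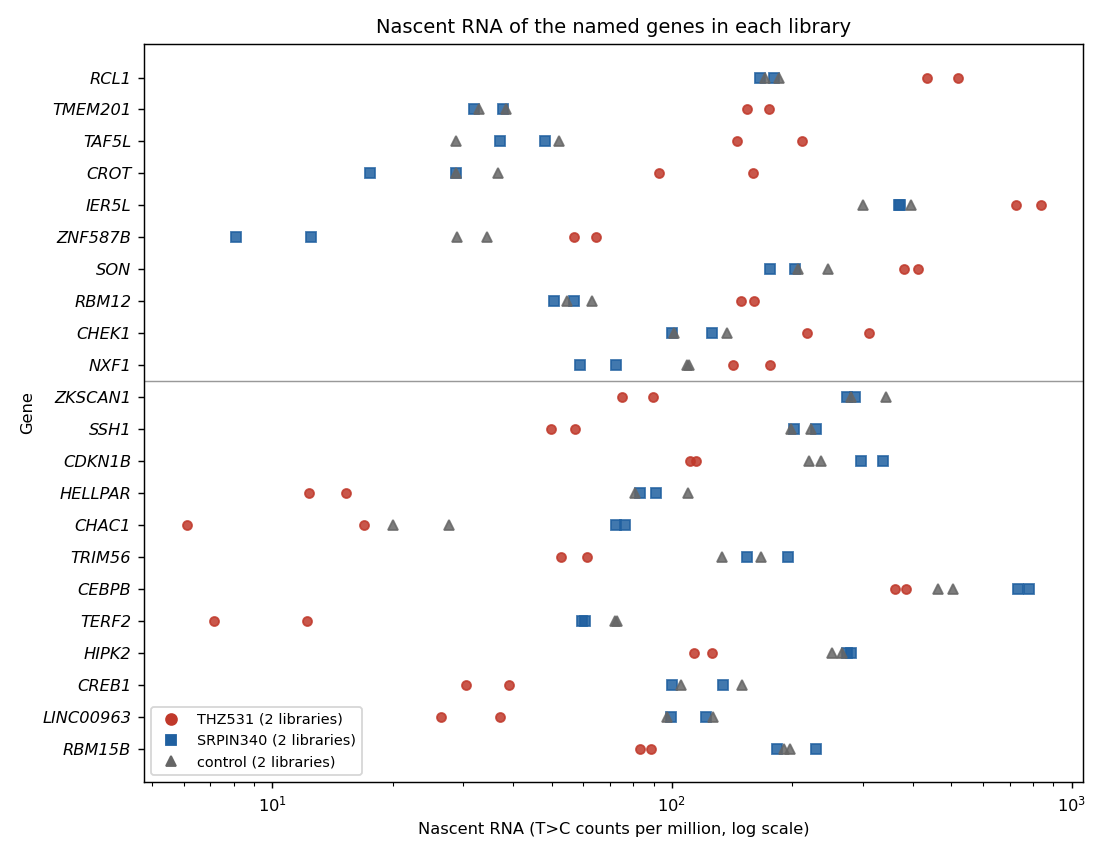
Nascent level (T>C CPM, log axis) of 10 higher and 12 lower genes of the smallest p in each library of THZ531 (circles), SRPIN340 (squares) and the control (triangles). In all of these genes the 2 THZ531 libraries lie on one side of the 2 SRPIN340 libraries, which the choice of the genes required, and in CROT, ZNF587B, SON, NXF1, CDKN1B, CHAC1, CEBPB and HIPK2 both control libraries lie between them.

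Several of the higher genes carried their reads on an early 3′ end, and with THZ531 transcripts shifted to such ends in many genes. Each deposited interval of a protein-coding gene was placed by where its 3′ end lies relative to the last exon of the canonical transcript: 7792 intervals ended upstream of that exon, 18662 within it or at most 1000 bases past it, and 1115 farther downstream. The placing of ends was added after the gene-level results were seen. Upstream ends took 2.12% and 2.20% of all reads with THZ531, 1.65% and 1.59% with SRPIN340 and 1.66% and 1.69% in the control. The THZ531 libraries were above these 4, and the SRPIN340 libraries lay just below the control. The means were 2.16% ± 0.0567 and 1.62% ± 0.0446 (SD, n = 2), a ratio of 1.33 (exact permutation test, two-sided, p = 0.33, the smallest possible). Among T>C reads the shares were 2.18% and 2.33% with THZ531, 1.66% and 1.57% with SRPIN340 and 1.71% and 1.73% in the control, a ratio of 1.40.

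More single upstream intervals were called higher than lower. When each of 14970 intervals was tested on all reads, 1306 (8.72%) were higher and 1793 (12%) lower with THZ531. Of the 2124 upstream intervals 486 (22.9%) were higher and 52 (2.45%) lower, at a median log2 difference of 0.49. Of the 12423 intervals in the last exon 810 (6.52%) were higher and 1660 (13.4%) lower, at a median of −0.02. An interval can pass the filter on low counts through its THZ531 reads alone. Of the 1446 upstream intervals with at least 10 reads in both control libraries 355 (24.6%) were higher and 47 (3.25%) lower, at a median of 0.37. Of the 423 intervals farther downstream 10 were higher and 81 (19.1%) lower, at a median of −0.37. On T>C reads 9713 intervals were tested, of which 148 (1.52%) were higher and 271 (2.79%) lower. Among them were 549 upstream intervals, with 45 higher and 1 lower, and 28 higher and 1 lower of the 269 with at least 10 T>C reads in both control libraries.

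The share of upstream ends within a gene gave the same direction without the level of the gene. It was tested in 1565 genes as an interaction of treatment with the place of the end. It was higher with THZ531 in 487 genes (31.1%) and lower in 9 (0.575%), at a median log2 odds ratio of 0.81 (edgeR, adjusted p under 0.05, all reads). In 900 genes (57.5%) both THZ531 libraries lay above both SRPIN340 libraries, and in 116 (7.41%) below. Since the filter on low counts lets a gene in through its THZ531 reads, genes were also taken by at least 10 reads on each side in both control libraries. Then 381 of 1055 genes had a higher and 13 a lower share. The counts were 287 and 0 without replicate 2 of THZ531, 325 and 0 without replicate 1 of SRPIN340, and 306 and 6 without replicate 2 of SRPIN340. On T>C reads the share was higher in 48 of 439 genes (10.9%) and lower in 0 (0%; edgeR, with 1 by DESeq2, and 4 at an unadjusted p under 0.05 against 113 higher), and these calls rested on all 4 libraries, since 0 to 2 were left when any of them was taken out. Of the 487 genes, 17 have an interval that overlaps another gene on the same strand.

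In the 487 genes 380 of 594 upstream intervals were called higher and 4 lower (median log2 difference 1.68). Of their 493 intervals in the last exon 220 were called lower and 2 higher (median −0.45). These genes were chosen on the balance of the ends, so the values describe the choice. Whether both ends moved in the same gene was not counted. In all 1565 genes tested for the share 466 of 1950 upstream intervals were higher and 39 lower, at a median of 0.52. Of 1589 intervals in the last exon 326 were lower and 66 higher, at a median of −0.12. As whole genes the 487 were called in both directions. In total RNA 60 of the 487 (12.3%) were higher and 92 (18.9%) lower, at a median of −0.02, beside 8.88% and 12.5% of all 1565 genes tested for the share. In nascent RNA 13 and 27 of 456 (2.85% and 5.92%) were higher and lower, at a median of −0.03, beside 1.46% and 3% of all 1366. The higher upstream share was about as frequent in genes called higher as in genes called lower, at 13 of 20 (65%) and 27 of 41 (65.9%) in nascent RNA. Both shares were above that of all genes tested, at 456 of 1366 (33.4%). The interval with most reads was an upstream end in 9 of 112 genes called higher in nascent RNA (8.04%), in 0 of 243 called lower, and in 171 of all 9347 (1.83%).

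**Figure D4:**
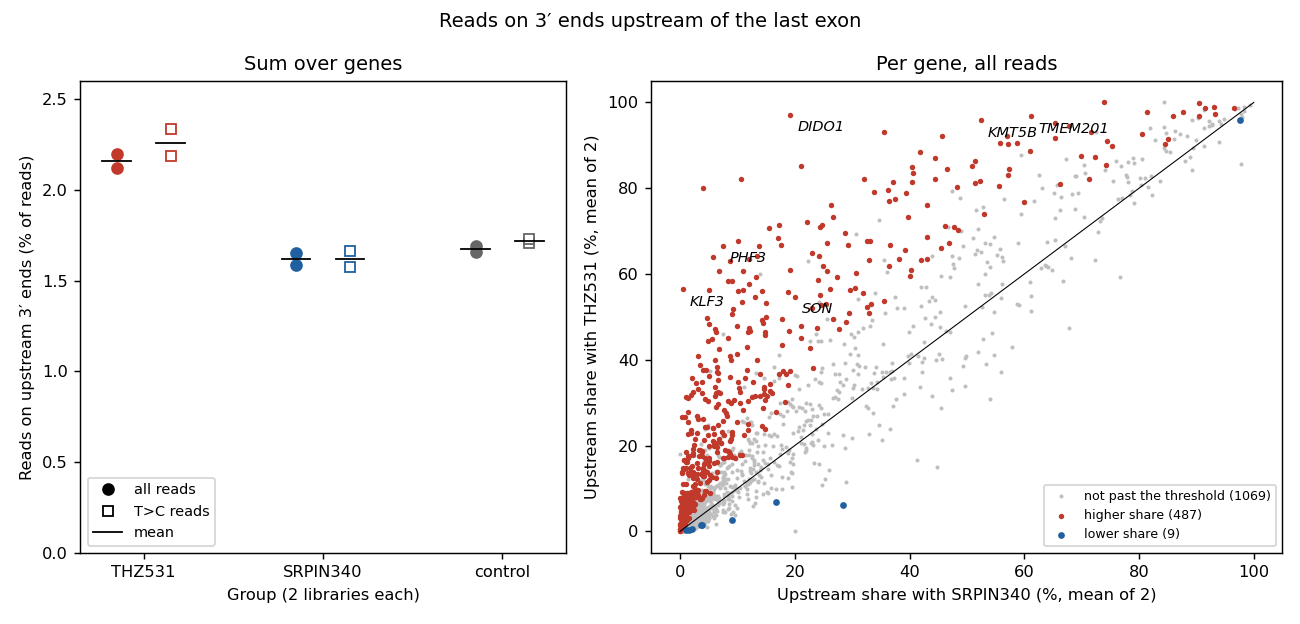
Left, the share of reads on 3′ ends upstream of the last exon in each library (percent; filled, all reads; open, T>C reads; bars, means), which is 2.12% to 2.33% with THZ531 and 1.57% to 1.73% with SRPIN340 and in the control. Right, the upstream share of each of 1565 genes with THZ531 (vertical axis) against that with SRPIN340 (horizontal axis), each the mean of 2 libraries, with the line of equality; 487 genes (red) lie above it and 9 (blue) below it at an adjusted p under 0.05.

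The ends of these genes are shown by their polyadenylation signals. The hexamer AATAAA, searched on the strand of the gene in the last 50 bases of each interval, was present in 65.1% of the intervals in the last exon and in 37.1% of the upstream intervals. It was present in 60.5% of the upstream intervals higher with THZ531, in 32.7% of the lower and in 30.1% of those not called. With ATTAAA counted as well, the shares were 79.9% in the last exon and 74.5% in the higher upstream intervals. A run of genomic adenines, which can prime the library without a poly(A) tail, was uncommon at the higher ends: 12 or more A among the 20 bases past the end were found in 3.09% of the higher, 15.4% of the lower and 6.81% of the other upstream intervals, and in 1.45% of the ends in the last exon. A hexamer is a match of letters and not a measured site. For genes whose reads moved between an upstream end and the last exon, 30 bases around the hexamer are given, 5′ to 3′ on the strand of the gene, from hg38, with the hexamer in capitals.
KLF3 upstream, chr4:38690722-38690751, plus strand: tcctccaacttgAATAAAtgttctacccac
KLF3 last exon, chr4:38701008-38701037, plus strand: tatatacttgttAATAAAaccatcagaata
KMT5B upstream, chr11:68165721-68165750, minus strand: gttgattctcatAATAAAtgcagcataacg
KMT5B last exon, chr11:68154868-68154897, minus strand: gttaatcattttAATAAAttcggaaattaa
JADE1 upstream, chr4:128864595-128864624, plus strand: ggcaggggtgacAATAAAaaaccaatcatt
JADE1 last exon, chr4:128875186-128875215, plus strand: tgtctgtatgtgAATAAAtgctgtacattt
PHF3 upstream, chr6:63686286-63686315, plus strand: agaagaactagtAATAAAgtatgaaggtca
PHF3 last exon, chr6:63715448-63715477, plus strand: gtgtatatcgtcAATAAAtctacctttact
RBBP6 upstream, chr16:24549368-24549397, plus strand: tttgtttcttgcAATAAAaaatgtttggag
RBBP6 last exon, chr16:24572824-24572853, plus strand: ctttttgattacAATAAAagttttcagtaa
SON upstream, chr21:33560632-33560661, plus strand: gctgtatcttttAATAAAcagtttactttt
TAF5L upstream, chr1:229599197-229599226, minus strand: ttaattatgccaAATAAAactgaattcaca
TMEM201 upstream, chr1:9604910-9604939, plus strand: tgctgtgttttcAATAAAtgcctctggggc

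DIDO1, a chromatin-binding protein with a PHD finger, had the smallest p. Upstream ends took 97.1% and 97.3% of its reads with THZ531, 19.3% and 19.1% with SRPIN340 and 19.4% and 19% in the control (log2 odds ratio 7.17 ± 0.32, edgeR adjusted p = 1.73e-07). The reads in its last exon were 55 and 36 with THZ531 and 874 and 1007 with SRPIN340. KLF3, a repressor of the Krüppel-like family, went from 2 and 5 upstream reads with SRPIN340 to 522 and 437 with THZ531, a share of 0.388% and 0.586% against 51.1% and 61.7%. Its upstream end was thus almost unused in SRPIN340, and in the control it took 1.49% and 1.36%. PHF3, which binds the tail of RNA polymerase II, had upstream shares of 65.3% and 67.9% with THZ531, 8.54% and 6.38% with SRPIN340 and 8.85% and 14.6% in the control. In KMT5B, a methyltransferase of histone H4, the share was 95.1% and 96.5% against 52.7% and 52.1%. In JADE1, a scaffold of a histone acetyltransferase complex, it was 68.8% and 74.0% against 17.5% and 17.1%. Low shares moved as well: in SRRM2, a scaffold of nuclear speckles, the share was 4.00% and 4.25% with THZ531 and 0.125% and 0.145% with SRPIN340. The SRRM2 shares rested on 12 and 15 upstream reads with SRPIN340. The log2 odds ratios of KLF3, PHF3, KMT5B, JADE1 and SRRM2 were 7.93, 4.64, 4.38, 3.58 and 4.98. DIDO1 and these genes were picked among those with a minimum of upstream reads in both THZ531 libraries, a limit on the higher group. KLF3, with 6 and 4 upstream reads in the control, and SRRM2, with 19 and 7, did not reach 10 in both control libraries. Of the 9 genes with a lower share, KRT8, a luminal keratin, had 8.83% and 4.71% with THZ531 against 19.1% and 14.5% with SRPIN340, and the others with a symbol were TMEM106C, CCDC57, RHOT1, RABL2B, ZDHHC20, CHCHD7 and KATNAL2.

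The genes that led the nascent comparison held several of these shifts. TMEM201 had upstream shares of 96.6% and 96.9% with THZ531, 61.5% and 61.1% with SRPIN340 and 71.7% and 69.9% in the control. Its upstream end held 1890 and 1517 reads with THZ531 and 322 and 417 with SRPIN340, but its last exon 66 and 48 against 202 and 266. TAF5L had 90.1% and 90.9% against 60.6% and 56.9%, and CROT 72.6% and 71.7% against 22.5% and 21.9%. In CROT the last exon held 530 and 542 reads with THZ531 and 759 and 1102 with SRPIN340, and the upstream ends held 1407 and 1370 against 220 and 309. SON had 52.1% and 57.1% against 20.6% and 19.3%, with 19.2% and 17.9% in the control. Of the reads on its upstream ends 22.0% and 18.2% carried a conversion with THZ531 and 15.1% and 13.5% with SRPIN340, and the control, at 15.8% and 19.5%, overlapped THZ531. In the last exon the labelled share was 7.43% and 5.29% against 6.49% and 6.43%. SSH1 moved the other way in nascent RNA and had 63.8% and 64.3% of its reads on upstream ends with THZ531 against 5.78% and 5.64% with SRPIN340. Only 1.88% and 2.64% of those upstream reads carried a conversion with THZ531, against 21% and 16.5% in its last exon. In its last exon the share with a conversion was 20.6% and 22.5% with SRPIN340 and 20.9% and 22.8% in the control. Over the gene as a whole it was 8.8% and 7.6% with THZ531 against 19.8% and 21.5%. The last exon held 362 and 231 reads with THZ531 and 1419 and 1605 with SRPIN340. Whether the conversions in the last exon came from the label was not tested, since every library was labelled.

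Of the gene lists, those of homologous recombination and replication-stress repair were among the lists with the most lower members. In total RNA 17 of 51 tested members were lower with THZ531 and 4 higher, at a median log2 difference of −0.24, beside 12% lower and a median of −0.01 over all genes tested. ERCC4, a nuclease subunit that cuts at DNA crosslinks, stood at 1.29 and 2.09 CPM with THZ531 and 10.1 and 13.5 with SRPIN340 (log2 difference −2.83), and the nuclease scaffold SLX4 at 1.62 and 1.23 against 6.96 and 5.08 (−2.05). FANCF, of the Fanconi anaemia core complex, stood at 8.37 and 8.52 against 28.4 and 28.7, with 29 and 24.2 in the control (−1.76). BRCA2, BLM, TOPBP1, EXO1 and BRCA1, all of homologous recombination or its checkpoint, were lower by log2 differences of −1.23, −1.16, −1.14, −1.05 and −0.80. Higher members were NBN, FANCA, TIPIN and CHEK1, the last at 94.7 and 122 against 64.1 and 70.1. In nascent RNA 6 of 42 were lower (FANCF, TOPBP1, XRCC2, ERCC4, BARD1, BRIP1) and CHEK1 higher, beside 2.6% and 1.33% of all genes. The lower count in total RNA was 11 and that in nascent RNA 2 without replicate 2 of THZ531, and 12 and 2 without replicate 1 of SRPIN340. In the same list the upstream share was higher in 9 of 11 genes tested for it, beside 31.1% of all: ATM, ERCC4, FANCA, FANCC, FANCD2, FANCI, FANCM, RAD51C and RAD54B. FANCA had 53.5% and 55.6% of its reads on upstream ends with THZ531 against 12.5% and 13.7%, and FANCM 41.1% and 35.3% against 6.83% and 6.06%.

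The cleavage and polyadenylation factors, which make 3′ ends, moved in both directions. In total RNA 6 of 26 were lower (PCF11, CSTF1, CPSF2, WDR33, CSTF2T and CPSF4) and 4 higher (SCAF8, FIP1L1, CPSF6 and PPP1CB). These were 23.1% and 15.4%, beside 12% lower and 7.04% higher over all genes tested. The lower count was 2 without replicate 2 of THZ531 and 3 and 4 without replicates 1 and 2 of SRPIN340. The upstream share was higher in 6 of the 7 tested for it, CSTF3, PAPOLA, RBBP6, SSU72, SYMPK and WDR33, beside 31.1% of all genes tested. RBBP6, a ubiquitin ligase of the cleavage machinery, had 95.1% and 91.0% against 41.1% and 30.1%, and its nascent level was 82.0 and 87.4 against 25.7 and 28.2 CPM. Its upstream end held 722 and 493 reads with THZ531 and 200 and 196 with SRPIN340, but its last exon 37 and 49 against 287 and 456. In total RNA RBBP6 did not pass the test (log2 difference 0.55, edgeR adjusted p = 0.0513). WDR33, which binds the AATAAA signal, had 39.8% and 41.8% against 2.10% and 4.19%. Respiratory chain subunits gave 0 of 12 genes with a higher upstream share and cytosolic ribosomal proteins 1 of 11, beside the same 31.1%.

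One list held the SR proteins, a family that SRPK1 phosphorylates, and genes of nuclear speckles. Of its members 11 of 26 were higher and 0 lower with THZ531 in total RNA, at a median log2 difference of 0.39, beside 7.04% of all genes. SRSF2 stood at 669 and 786 CPM with THZ531, 439 and 455 with SRPIN340 and 592 and 590 in the control, a log2 difference of 0.70. SRSF6 stood at 312 and 288 against 195 and 189, with 255 and 276 in the control (0.64). For these splicing factors the control lay between the treatments. TRA2B stood at 241 and 288 against 178 and 189, with 180 and 133 in the control (0.52), so that here SRPIN340 was no lower than the control. The others were LUC7L3, SREK1, TRA2A, LUC7L, CCNL1, SRSF5, PNISR and ARGLU1, at log2 differences of 0.36 to 0.77. In nascent RNA SRSF6 and SON of 25 passed the test, both higher, beside 1.33% of all genes. The total count was 4 without replicate 2 of THZ531 and 5 without replicate 1 or replicate 2 of SRPIN340, and it was 7 when the libraries were scaled by their size alone. In the core spliceosome list 3 of 46 were higher, and 0 or 1 were without any of the same 3 libraries.

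Of the genes of the integrated stress response, which ATF4 drives when translation initiation is curbed, 12 of 44 (27.3%) were lower with THZ531 in total RNA and ATF5 alone was higher, at a median of −0.24, beside 12% lower over all genes. DDIT3, the death-promoting factor CHOP, stood at 33.8 and 28.8 CPM with THZ531, 108 and 75.9 with SRPIN340 and 67.8 and 62.4 in the control. CHAC1 stood at 16.3 and 8.58 against 61 and 42.1, with 19.5 and 16.1 in the control. SLC7A11, the cystine importer, stood at 164 and 183 against 255 and 287, and the control, at 125 and 99.9, lay below both treatments. The amino acid carriers SLC38A2 and SLC1A4 and the enzymes GPT2, AARS1 and MARS1 were lower as well, at −0.90, −1.09, −0.59, −0.47 and −0.37. In nascent RNA CHAC1, CEBPB, SLC38A2, DDIT3 and SLC7A11 were lower, 5 of 43, beside 2.6% of all genes, and 0 were higher. The lower count in total RNA was 8 without replicate 2 of THZ531 or of SRPIN340, and that in nascent RNA was 2 without replicate 2 of THZ531 and 3 without replicate 1 of either treatment. The endoplasmic reticulum folding list lay below the share of all genes for lower and near it for higher members, with 4 of 59 (6.78%) lower, HERPUD1, EDEM3, XBP1 and SEL1L, and 5 (8.47%) higher, falling to 2 and 0 without replicate 2 of THZ531, to 2 and 1 without replicate 1 of SRPIN340 and to 1 and 1 without its replicate 2. HERPUD1, which acts in the disposal of misfolded proteins, stood at 90.9 and 76.2 against 198 and 189, with 141 and 116 in the control (−1.21).

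Of the immediate early genes, which respond within minutes to stimuli, 14 of 43 were higher and 3 lower with THZ531 in total RNA, at a median of 0.46, beside 7.04% and 12% of all genes. KLF10 stood at 39 and 68.3 CPM against 14.9 and 17.9 (log2 difference 1.70), JUNB, with 20.5% T>C reads in the control, at 60.3 and 88.2 against 32.2 and 35.1 (1.14), and IER5 at 196 and 223 against 113 and 110 (0.91). The lower members were DUSP4, DUSP1 and KLF6. The phosphatase DUSP4 stood at 13.3 and 12.3 against 29.4 and 28.3, and the control, at 16.2 and 15.4, was nearer to THZ531. In nascent RNA KLF10, IER5, JUNB, ZFP36L1 and IER2 were higher, 5 of 38, beside 1.33% of all genes. Without replicate 2 of THZ531 the counts were 7 in total and 0 in nascent RNA, and without replicates 1 and 2 of SRPIN340 8 and 7 in total and 1 and 3 in nascent RNA.

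**Figure D5:**
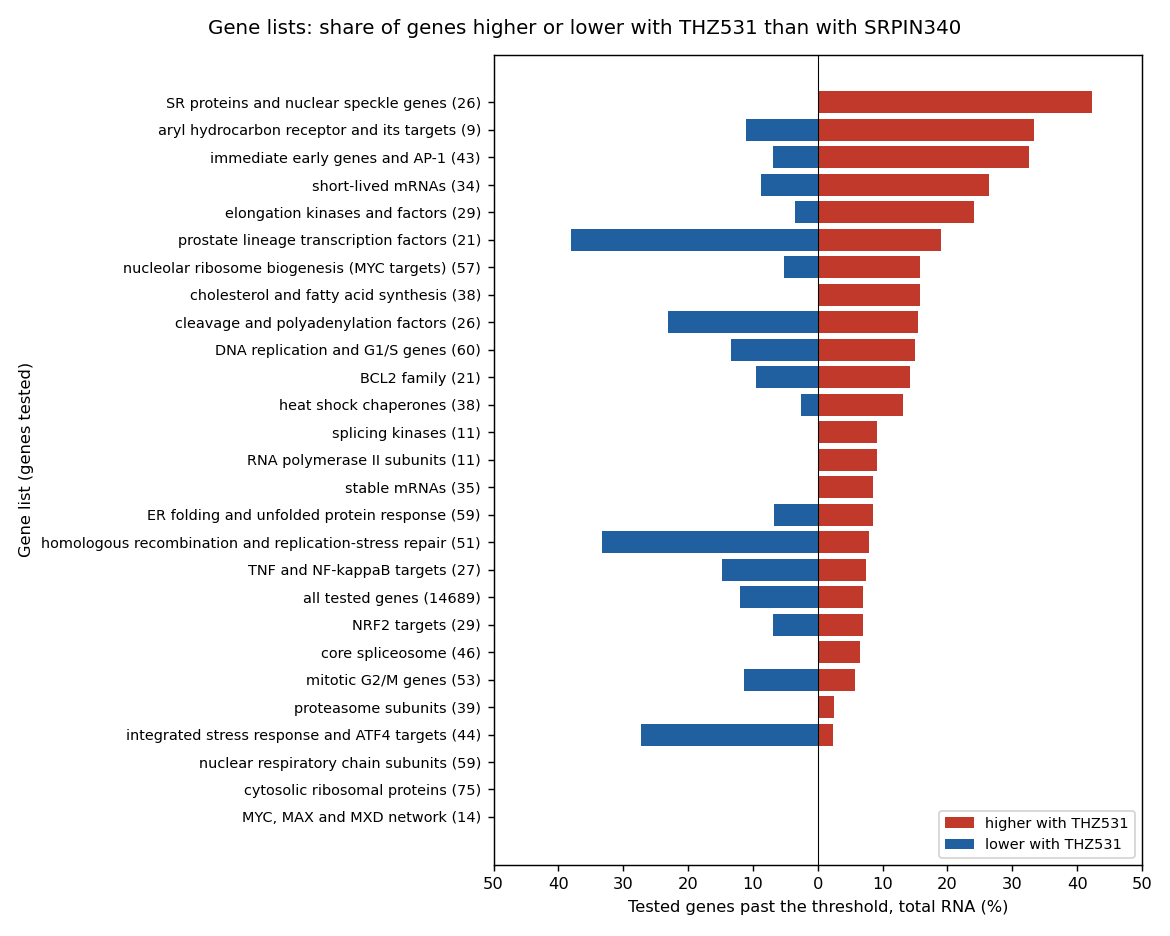
Share of the tested genes of each list that were higher (red, right) or lower (blue, left) with THZ531 than with SRPIN340 in total RNA at an adjusted p under 0.05 (percent, with the number of genes tested in brackets). All 14689 genes gave 7.04% higher and 12% lower; the SR and speckle list reached 42.3% higher, and the recombination list 33.3%, the lineage factors 38.1% and the stress response list 27.3% lower.

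Prostate lineage factors divided. In total RNA 8 of 21 were lower, among them MYB, ETV5, GRHL2, HOXB13, ONECUT2, ETV1 and TFAP2A, and 4 higher, SOX4, SOX9, KLF5 and GATA2. HOXB13, a homeobox factor of the prostate, stood at 64.3 and 50 CPM with THZ531 against 94.4 and 84.6 with SRPIN340 and 111 and 109 in the control. SOX4 stood at 556 and 591 against 283 and 294, and the control, at 445 and 425, lay between. The lower count was 3 without replicate 2 of THZ531 and 4 without replicate 1 or 2 of SRPIN340. SLC45A3, a prostate membrane transporter, was higher at 153 and 120 against 49.1 and 46.1, with 103 and 89.3 in the control. KLK3, which encodes prostate-specific antigen, did not pass the test (log2 difference −0.27, edgeR adjusted p = 0.597).

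Regulators of elongation were higher in 7 of 29 cases (24.1%) and lower in 1, beside 7.04% and 12% of all genes. HEXIM1, which holds the elongation kinase P-TEFb inactive, stood in total RNA at 133 and 211 CPM with THZ531, 34.3 and 42.7 with SRPIN340 and 54.7 and 54.8 in the control (log2 difference 2.16 ± 0.18, edgeR adjusted p = 7.53e-06). Its paralogue HEXIM2 went the other way, at 0.959 and 0.643 against 3.55 and 2.83 (−1.96). In cholesterol and fatty acid synthesis 6 of 38 (15.8%) were higher and 0 lower, but 0 were called without replicate 1 or replicate 2 of SRPIN340. Ribosome biogenesis gave 9 higher (15.8%) and 3 lower (5.26%) of 57, and 2 to 3 higher without replicate 2 of THZ531 or either SRPIN340 library. DNA replication genes gave 9 higher (15.0%) and 8 lower (13.3%) of 60, the lower share being near that of all genes. Without replicate 2 of THZ531 the higher counts were 3 in elongation and 4 in replication, and without replicate 1 of SRPIN340 they were 3 and 3. Further members called in nascent RNA were ELL2 and RTF1 of elongation, the stress-induced gene GADD45A, the ribosome assembly genes NOP16 and GRWD1, and RFC3 of replication, at log2 differences of 1.45, 0.82, 1.23, 0.62, 1.42 and 0.58, and on the lower side ORC2 of replication and the centromere protein CENPI, at −1.22 and −1.94. The aryl hydrocarbon receptor list gave 3 higher, AHR, CYP1A1 and TIPARP, and 1 lower, AHRR, of 9. Lists with few or no calls were the cytosolic ribosomal proteins (0 of 75), the nuclear respiratory chain (0 of 59), the MYC network (0 of 14) and the proteasome (1 of 39). Short-lived mRNAs, a list that shares members with the immediate early genes, gave 9 higher and 3 lower of 34, and 5 higher without replicate 2 of THZ531 or replicate 1 of SRPIN340. The lists of RNA polymerase II subunits, splicing kinases, TNF targets, the BCL2 family, NRF2 targets, heat shock chaperones, mitotic genes and stable mRNAs gave at most 5 higher and 6 lower genes each.

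Zinc finger genes held many lower members. Of 438 tested genes with a ZNF symbol 156 (35.6%) were lower and 26 (5.94%) higher in total RNA, at a median log2 difference of −0.48. Among all protein-coding genes 12% were lower and 7.24% higher. In nascent RNA 21 of 288 (7.29%) were lower and 8 (2.78%) higher, at a median of −0.23, beside 2.63% and 1.27% of all protein-coding genes. The lower counts in total and nascent RNA were 93 and 1 without replicate 2 of THZ531, and 101 and 8 without replicate 1 of SRPIN340. This class was chosen after its values were seen. Protein-coding genes of 1 exon, which have no intron to end in, were lower in 51 of 205 cases (24.9%) and higher in 16, beside 12% and 7.24% of all protein-coding genes, and the lower count was 30 without replicate 2 of THZ531 and 32 without replicate 1 of SRPIN340.

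The medians of genes of different length lay close together, and 1.27% of all protein-coding genes were higher and 2.63% lower in nascent RNA. Relative to all tested genes, the median nascent difference of protein-coding genes spanning over 100 kb was −0.04 on the log2 scale and that of genes under 10 kb 0.01. For genes over 200 kb the median relative to all genes was −0.09, with 11 lower and 4 higher genes of 687. Genes of more than 30 exons had a median of −0.16 relative to all genes in nascent RNA, with 11 of 421 lower and 2 higher, and 3 and 4 lower without replicate 2 of THZ531 and replicate 1 of SRPIN340. The genes whose upstream share was higher had a median span of 74.1 kb and 15 exons, beside 60.4 kb and 13 exons over all genes tested for the share.

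The targets of the inhibitors showed no difference in their own RNA that passed the test. In nascent RNA the log2 difference was 0.46 for CDK12, 0.20 for CDK13, 0.01 for the cyclin CCNK, 0.01 for SRPK1 and 1.03 for SRPK2 (edgeR adjusted p = 0.477, 0.853, 0.99, 0.992 and 0.351). SRPK1 stood at 74.9 and 80.3 CPM with THZ531 and 75.1 and 78.9 with SRPIN340. For SRSF1, a substrate of SRPK1 whose interval overlaps another gene, and for VEGFA, whose splicing SRPK1 is known to affect, it was −0.05 and 0.30. MYC stood at 187 and 255 with THZ531, 141 and 131 with SRPIN340 and 85 and 66.6 in the control, and did not pass the test between the treatments (log2 difference 0.69 ± 0.21, edgeR adjusted p = 0.0508). MNAT1, an assembly factor of the CDK-activating kinase, stood at 103 and 161 with THZ531 and 103 and 114 with SRPIN340 but at 3.22 and 4.81 in the control, so the treatments overlapped and both lay above the control. It stood at 102 and 136 with Endovion. Its T>C share was unusually high, at 54.5% and 27.2% with THZ531 and 56.2% and 35.2% with SRPIN340, against 2.7% and 11.1% in the control. Whether these T>C reads came from the label was not tested.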

How the data were processed

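The authors mapped single-end SLAM-seq reads to hg38, counted conversions with SLAM-DUNK and deposited a table per library with counts of reads and of T>C reads per 3′ UTR interval, not normalized. SLAM-DUNK's version, its settings and the handling of molecular identifiers are not given in the sources used here; the submitters' processing notes name Bowtie2 2.3.4.1, SAMtools 1.6 and DESeq2 1.38.2. Of 104653 listed intervals 92910 matched GENCODE v44 genes, and 3.53% of T>C reads lay on others. Where intervals of a gene overlapped, the best covered was kept (57390 intervals, 31015 genes), since a plain sum counts 48.8% of T>C reads again. Over the 10 libraries 1011597 to 1576117 T>C reads lay on genes, which limits nascent calls to well-covered genes.

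Counts were tested with edgeR 4.0.16 (quasi-likelihood, TMM scaling, filterByExpr, Benjamini-Hochberg, adjusted p under 0.05) in R 4.3.3. All 5 groups were fitted, so that the other groups lent their spread and also entered the scaling and the filter on low counts. The T>C share and the upstream share were tested as interactions within libraries. Levels are TMM-scaled CPM. DESeq2 1.42.0, other scalings and filters, plain sums, a replicate block and leaving out each library were tried, and the scripts were tested on simulated data. Members and gene lists were chosen with earlier results of these data known. Genes were named by rule: the 12 of the smallest p in each direction in nascent and 5 in total RNA, with an adjusted p under 0.05, a log2 difference of at least 1 and non-overlapping groups, up to 3 called in nascent RNA from each list, and the inhibitors' targets, KLK3, VEGFA, MYC and MNAT1; other genes were named after their values were seen. Genes without an approved symbol were counted only, and some genes and lists are not reported here.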

Additional observations from a re-analysis of the deposited data

How the results depend on the processing

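Genes higher and lower in nascent RNA (132 and 259) numbered 87 and 182 with DESeq2, 85 and 347 with scaling by library size alone, 15 and 48 with a plain sum of overlapping intervals, and 30 to 166 and 66 to 293 when each library was left out in turn; the cause was not tested. Genes higher and lower in total RNA (1034 and 1766) numbered 576 and 2239 with library size alone, and 347 to 1228 and 994 to 1900 with a library left out. For the T>C share (0 and 0) the counts were 1 and 1 with DESeq2, 5 and 3 when centred on the median, 6 and 1 without a filter, 1 and 1 with at least 20 reads, and 0 to 1 each with a library left out. The nascent median of genes over 100 kb relative to all genes (−0.0363) was −0.00795 without a filter, −0.0756 with at least 20 reads and −0.0537 to −0.0205 with a library left out, and that of genes under 10 kb (0.0114) was −0.0158 to 0.0259 with a library left out. Genes with a higher share of upstream ends (487) numbered 287 to 410 with a library left out, and those with a lower share (9) 0 to 9, and 15 with at least 20 reads. On T>C reads (48 and 0) they numbered 2 and 0 without a filter, 30 and 0 when chosen on the control libraries, 60 and 1 with DESeq2 and 0 to 2 and 0 with a library left out. SSH1 in total RNA turned to 0.00938 on the log2 scale with plain sums. Replicate numbers are shared across groups, but no source says that they pair the libraries, and deviations of same-numbered libraries correlated at r = 0.062 in nascent and 0.198 in total RNA. With the replicate block 147 and 275 genes were called in nascent RNA, 1021 and 1757 in total RNA, and 469 and 10 for the upstream share (44 and 1 on T>C reads). The upstream ends and their alternatives, and the ZNF, 1-exon, over-30-exon and over-200 kb classes, were chosen after seeing the data. With 2 libraries a group, no exact test can go below 0.33, and low T>C counts limit calls in weakly expressed genes. Intervals and shares cover counting error only, and reads outside the annotated intervals were not counted.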
